A study of Aspergillus fumigatus with 12 samples.

Results

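Mycelium grown with sinapic acid and the azo dye Ponceau 2R was compared with mycelium grown with sinapic acid alone, and the labels do not say in which order the compounds were added. The genes described are those with at least 1 FPKM (fragments counted on a gene, scaled by its length and by the depth of the library) in 3 or more of the 6 libraries compared, which were 9039 of the 10276 genes in the deposited table. The P2R+SA group was grown on basic medium with Ponceau 2R and sinapic acid, and the SA group on basic medium with sinapic acid alone. The P2R group (basic medium with the dye) and the CK group (basic medium) served to set the dye's effect without sinapic acid beside it. Each group has 3 libraries of RNA from mycelium of strain X-13. The series title names the fungus as Trametes hirsuta, whereas the organism field of every sample names Aspergillus fumigatus, and no label tells whether replicates were grown as separate cultures. If they were not, the p-values measure a spread that may be technical.

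Ponceau 2R is a red synthetic dye that holds an azo bond. Trametes species are white-rot fungi, which break down lignin with secreted oxidative enzymes such as laccases and peroxidases, and these enzymes also attack many dyes. Sinapic acid, which plants make, resembles the units from which lignin is built, and phenolic compounds of this kind can act as mediators that carry electrons between a laccase and a substrate it oxidises poorly. Whether any gene below encodes such an enzyme could not be read from the files: they pair no gene ID with a name or product, and 0 of the 10276 IDs matched the 10086 genes of an Aspergillus fumigatus Af293 annotation. Genes are therefore described by level, coding length and behaviour in the 4 groups, and 4 IDs are printed.

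All 6 compared libraries carry the number 48 in the headers of their files, and the P2R and CK libraries carry 36, although the series design gives 48 h for every group. The P2R+SA headers alone hold a separate 4, which no source explains and which cannot be told apart from the dye. Whole fragments recovered from the FPKM values came to between 36830112 and 38649663 per P2R+SA library and between 35843616 and 37398295 per SA library. At the median coding length of 1350 bp, 1 fragment was worth 0.0191 to 0.0206 FPKM in these libraries, so depth limited mainly the values near 1 FPKM. Libraries of 1 group differed far beyond sampling noise, with a chi-square per degree of freedom of 34.9 or more in each P2R+SA and SA pair.

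P2R+SA replicate 1 stood apart from its group. Across the 9039 genes, P2R+SA replicates 2 and 3 had a Spearman correlation of 0.9944, whereas replicate 1 reached 0.9762 with replicate 2 and 0.9739 with replicate 3. Its median correlation with the SA libraries was 0.9713, against 0.9641 for P2R+SA replicate 2 and 0.9665 for replicate 3. The SA libraries were also loose, with correlations of 0.9639 to 0.9763 among them. Spread between replicates, as the median SD over genes, was 0.21 log2 units in P2R+SA and 0.22 in SA, compared with 0.13 in P2R and 0.10 in CK. The comparison was therefore fitted on its own 6 libraries, so that the tighter P2R and CK groups did not lower its error.

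Adding the dye to sinapic acid cultures changed 32 of 9039 genes (0.354%) by limma at a Benjamini-Hochberg adjusted p under 0.05, with 14 genes higher (0.155%) and 18 lower (0.199%) in P2R+SA. The rises ran from 1.055 to 2.44 log2 units with a median of 1.66, and the falls from -1.18 to -4.00 with a median of -1.55, all as log2(FPKM + 1), where the added 1 makes changes of weakly expressed genes look smaller than they were. Over all tested genes the median difference was -0.06 log2 units. In a bulk sample, fewer hyphae expressing a gene and less RNA of it per hypha cannot be told apart. The genes that fell had a median level of 26.1 FPKM in P2R+SA and 115 FPKM in SA, and those that rose 50.03 FPKM in P2R+SA and 12.4 FPKM in SA. Their median coding lengths were 1573.5 bp for falls and 882 bp for rises, against 1356 bp over all tested genes with a length.

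These calls sat close to the threshold, with adjusted p between 0.0319 and 0.0487, and they depended on which libraries were in the fit. Without P2R+SA replicate 1 the count was 69 genes, 23 of them among the 32, and without SA replicate 1 it was 188, which included all 32. No gene passed without P2R+SA replicate 2, P2R+SA replicate 3 or SA replicate 2. In these fits 593, 744 and 1142 of 9039 genes had an unadjusted limma p under 0.05, which some genes reach with no effect. Without SA replicate 3, 3 genes passed, 1 of them among the 32. With all 12 libraries sharing 1 estimate of spread, 566 genes passed (6.26%), 271 higher (3%) and 295 lower (3.26%), and they included all 32. That estimate takes in the tighter P2R and CK groups, which lowers the error of this comparison.

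**Figure D1:**
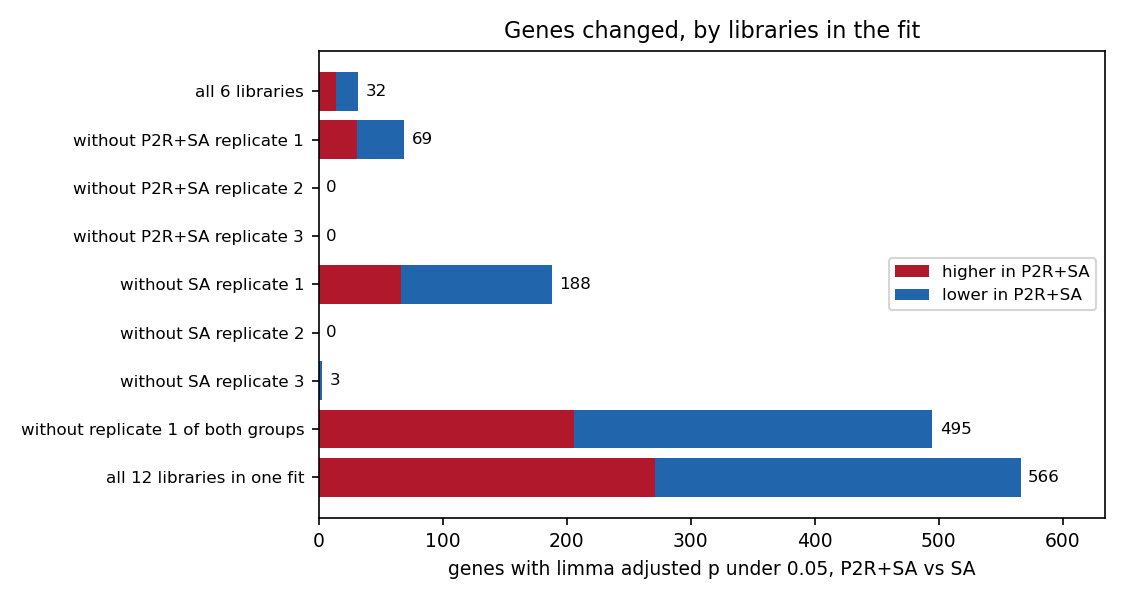
Genes with a limma adjusted p under 0.05 in P2R+SA vs SA, on the horizontal axis, for the fit to all 6 libraries and for fits with libraries left out or added (rows). Red counts genes higher and blue genes lower in P2R+SA, and the number is their sum, which is 32 with all 6 libraries, 0 to 188 with 1 library left out and 566 with all 12 libraries.

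Groups that did not overlap were more common than calls, but with 3 libraries per group some genes separate fully with no effect. The counts are therefore a description. Every P2R+SA library lay above every SA library in 737 genes (8.15%), and every one lay below in 986 genes (10.9%). A difference of at least 1 log2 unit was seen in 128 genes higher and 180 lower in P2R+SA, and the groups did not overlap in 105 and 126 of these. At a size of at least 2 log2 units, 9 genes were higher and 25 lower, with no overlap in 9 and 20. Calls came from every level of expression. Among 1731 genes with a mean under 5 FPKM over the 6 libraries, 2 rose and 0 fell, while 4 rose and 6 fell among 2530 genes at 5 to 20 FPKM, among 3217 at 20 to 100 and among 1561 at 100 or more.

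The largest rise that passed was in A10771, a gene with a coding length of 234 bp. It had 114, 61.5 and 55.4 FPKM in the P2R+SA libraries, against 12.6, 9.93 and 16.1 FPKM in the SA libraries. All P2R+SA values lay above all SA values, and P2R+SA replicate 1 was the highest. The log2 difference was 2.44 (SE 0.30, limma adjusted p = 0.0383), a 5.99-fold difference of means. Without sinapic acid no change passed the test, with 489.9, 308 and 339 FPKM in P2R and 443, 328 and 324 FPKM in CK (log2 difference 0.04, SE 0.19, limma adjusted p = 0.873). A10771 was thus far lower in both groups with sinapic acid than in both groups without it, and of the groups with sinapic acid P2R+SA was the higher. Its adjusted p was 0.0276 without P2R+SA replicate 1, and it ran from 0.0171 to 0.154 over the libraries left out.

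The next rise, A09380, behaved otherwise. This gene of 1074 bp had 160.1, 296 and 317 FPKM in P2R+SA, against 74.3, 53.2 and 34.5 FPKM in SA. The groups did not overlap, and P2R+SA replicate 1 and SA replicate 1 were the libraries nearest to each other. The log2 difference was 2.24 (SE 0.34, limma adjusted p = 0.0487). Without sinapic acid the dye raised it too, with 176, 301 and 184 FPKM in P2R and 10.5, 15.3 and 7.797 FPKM in CK, a log2 difference of 4.18 (SE 0.26, limma adjusted p = 2.25e-05). The P2R+SA and P2R libraries overlapped in level. Its adjusted p was 0.0349 without P2R+SA replicate 1, and it passed in 5 of 17 alternative fits.

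The deepest fall that passed was in A00670, a gene of 249 bp. It had 26.2, 14.8 and 22.9 FPKM in P2R+SA, against 151, 851 and 327 FPKM in SA. The SA libraries differed widely among themselves, yet the lowest of them was well above every P2R+SA library. The log2 difference was -4.00 (SE 0.55, limma adjusted p = 0.0383), and the mean in SA was 20.8 times that in P2R+SA. The dye also lowered this gene without sinapic acid, to 127, 143 and 72.0 FPKM in P2R against 437, 503 and 572 FPKM in CK (log2 difference -2.19, SE 0.23, limma adjusted p = 0.000202). Without P2R+SA replicate 1 the adjusted p was 0.0551.

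A00523, of 306 bp, had the second fall, with 18.1, 18.9 and 17.6 FPKM in P2R+SA, against 73.1, 186 and 94.2 FPKM in SA. The 3 P2R+SA libraries were nearly level, including replicate 1. The log2 difference was -2.51 (SE 0.31, limma adjusted p = 0.0383), and the adjusted p was 0.0503 without P2R+SA replicate 1. Here too the dye lowered the gene without sinapic acid, to 67.0, 76.4 and 78.6 FPKM in P2R against 196, 141 and 114 FPKM in CK (log2 difference -0.98, SE 0.17, limma adjusted p = 0.00242). In A00670 and A00523 the P2R+SA libraries were the lowest of the 12.

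**Figure D2:**
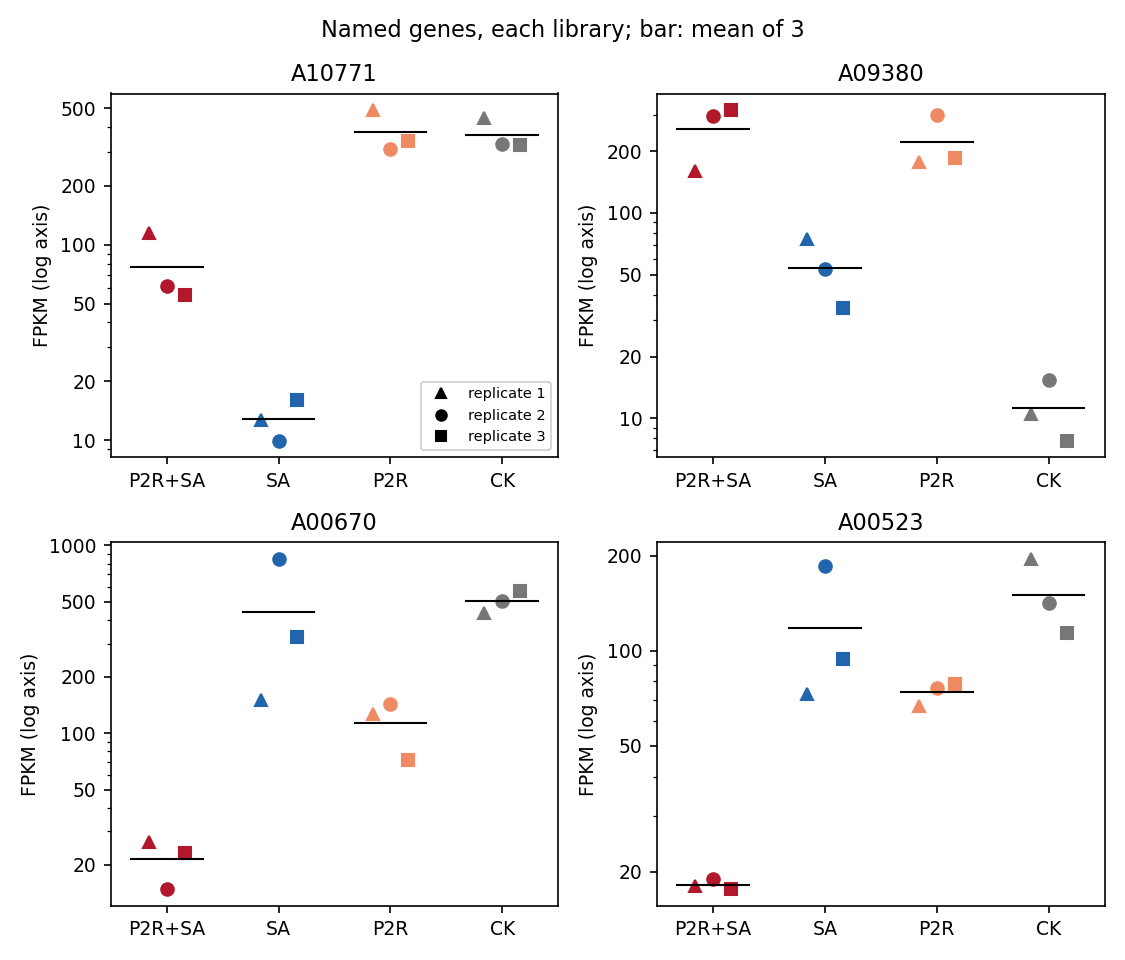
FPKM on a log axis (vertical) of the 4 named genes in each library of the 4 groups (horizontal), with the marker shape giving the replicate number and the bar the mean of 3 libraries. A10771 sits at 55.4 to 114 FPKM in P2R+SA, above SA and below P2R and CK, while A00670 and A00523 have their lowest values in P2R+SA.

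The 14 rises were split by whether they also passed as higher with the dye without sinapic acid. Not passing does not show that the dye had no effect there. In P2R vs CK, fitted on libraries and a spread of its own, 9 of the 14 passed as higher and 0 as lower, where 20.1% of all tested genes passed as higher. The 9 genes had a median log2 difference of 1.43 in P2R+SA vs SA and 1.40 in P2R vs CK, and the effect with sinapic acid was the smaller in 5 of them. In 7 of these 9 the mean was also higher in P2R+SA than in P2R. An example is the seventh rise, with 34.0, 47.1 and 49.7 FPKM in P2R+SA, 15.7, 9.81 and 10.5 FPKM in SA, 11.7, 11.1 and 14.2 FPKM in P2R and 7.08, 7.55 and 6.76 FPKM in CK. It was higher with the dye in both media, and P2R+SA replicate 1 lay nearest to SA.

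The other 5 rises did not pass in P2R vs CK, where their log2 differences ran from -0.36 to 0.26 (limma adjusted p from 0.0607 to 0.873). In P2R+SA vs SA they rose by 1.28 to 2.44 log2 units, which was 2.41-fold to 5.99-fold in means. Their mean levels were 22.6 to 138.9 FPKM in P2R+SA, 4.82 to 57.8 FPKM in SA, 14.5 to 379 FPKM in P2R and 15.2 to 365 FPKM in CK. In all 5 the SA mean was the lowest of the 4 groups. The SA libraries would enter a comparison with CK as well as the one with P2R+SA, so these levels are given side by side and not as separate evidence. The third rise, for example, had 33.1, 26.0 and 18.5 FPKM in P2R+SA and 7.81, 3.96 and 3.99 FPKM in SA, against 94.4, 78.3 and 105 FPKM in P2R and 77.6, 94.6 and 88.6 FPKM in CK. The fifth rise lay above every P2R and CK library in P2R+SA, with 20.6, 21.9 and 25.5 FPKM in P2R+SA and 5.66, 4.10 and 4.69 FPKM in SA, against 14.3, 13.1 and 15.97 FPKM in P2R and 15.96, 14.2 and 15.5 FPKM in CK.

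Of the 18 falls, 15 also passed as lower in P2R vs CK and 0 as higher, where 29.2% of all tested genes passed as lower. Their median log2 difference was -1.58 in P2R+SA vs SA and -1.15 in P2R vs CK, and the effect with sinapic acid was the smaller in 4 of the 15. The seventh fall had 175, 112 and 126 FPKM in P2R+SA and 435, 541 and 433 FPKM in SA, against 223, 230.4 and 247 FPKM in P2R and 520.3, 488 and 552 FPKM in CK. It was lower with the dye in both media, and no groups compared overlapped. The most abundant of the falls, the eighteenth by size, had 364, 265 and 283 FPKM in P2R+SA, 637, 750.2 and 666 FPKM in SA, 931, 989.5 and 943 FPKM in P2R and 1812, 1706 and 1628 FPKM in CK. Its levels were lower in the groups with either compound than in CK and lowest with both. In the steps between groups with and without sinapic acid, the header number cannot be told apart from sinapic acid.

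The remaining 3 falls, of 4083, 900 and 1485 bp, did not pass in P2R vs CK (log2 differences from -0.19 to 0.45, limma adjusted p from 0.0724 to 0.393). They had means of 6.06 to 36.3 FPKM in P2R+SA and 18.6 to 84.4 FPKM in SA, and in each the SA mean was the highest of the 4 groups. The clearest was the eleventh fall, with 6.80, 5.12 and 6.25 FPKM in P2R+SA and 17.1, 20.2 and 18.6 FPKM in SA, against 6.19, 6.22 and 5.45 FPKM in P2R and 6.91, 6.41 and 6.17 FPKM in CK. Only its SA libraries stood out, and the other 9 libraries lay between 5.12 and 6.91 FPKM. The calls in P2R vs CK moved little with the scaling: median-of-ratios scaling gave 10 of the 14 rises and 14 of the 18 falls passing in the same direction, with 1 fall passing as higher, and quantile normalization gave 9 and 15, with 1 rise passing as lower.

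P2R+SA replicate 1 was the P2R+SA library nearest to SA in 14 of the 18 falls and 7 of the 14 rises. Among the 69 genes called without that library, it reached a median of 55.7% of the log2 distance from SA that replicates 2 and 3 showed. It lay on their side of the SA mean in 67 of the 69 genes and within the SA range in 5. For SA replicate 1, read in the same way against the 188 genes called without it, the median was 40.9% of the distance from P2R+SA, and it lay within the P2R+SA range in 31. Genes chosen for their difference in the other 5 libraries favour a smaller value in the library left out, so these shares are a description. Library weights did not single out SA replicate 1, at 0.63, 0.49 and 1.28 for SA replicates 1, 2 and 3. P2R+SA replicate 1 had 0.278, against 4.98 and 1.82 for P2R+SA replicates 2 and 3. What sets P2R+SA replicate 1 apart was not tested.

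**Figure D3:**
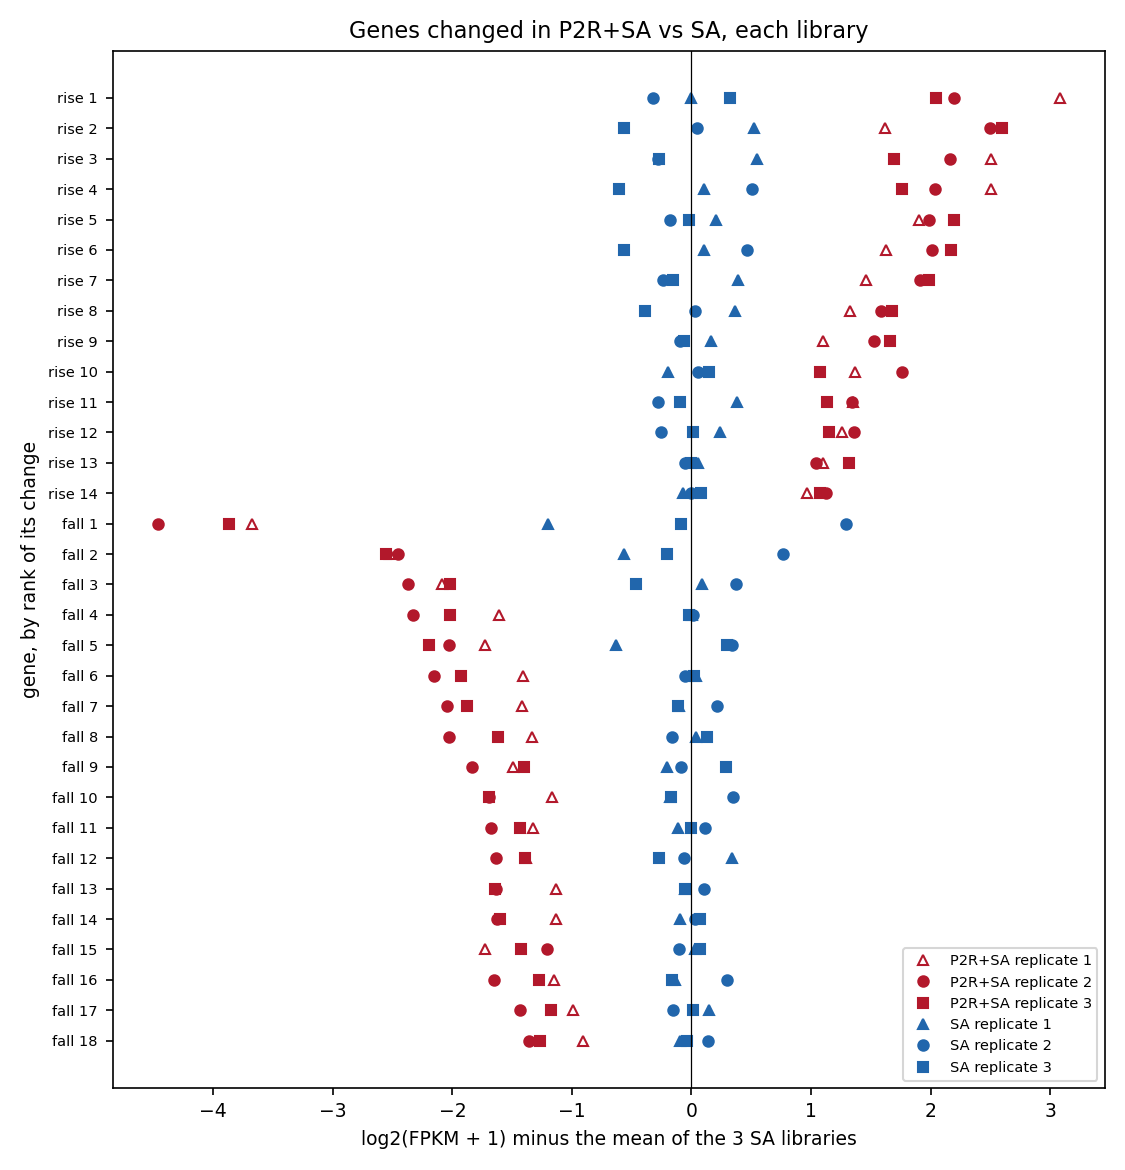
log2(FPKM + 1) minus the SA mean (horizontal) of the 32 changed genes, 1 per row in order of rank, in each P2R+SA library (red, with replicate 1 open) and each SA library (blue). The groups do not overlap in any row, and the open red triangle is the red point nearest to SA in 14 of 18 falls and 7 of 14 rises.

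The largest differences were not all among the calls. The highest log2 difference of all tested genes, 3.48, was in a gene of 1086 bp with 58.6, 292 and 233 FPKM in P2R+SA and 20.2, 18.8 and 5.995 FPKM in SA, which did not pass (limma adjusted p = 0.0784). Its 2 highest libraries were P2R+SA replicates 2 and 3, and replicate 1 was far below them. The lowest, -5.31, was in a gene of 717 bp with 26.0, 13.0 and 18.1 FPKM in P2R+SA and 239, 584 and 3209 FPKM in SA (limma adjusted p = 0.0524). No overlap was seen in either gene, but the spread within SA or P2R+SA was wide. With all 12 libraries in 1 fit both passed (limma adjusted p = 0.00653 and 0.00185), but that fit takes in the tighter spread of P2R and CK.

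The dye's effect with sinapic acid was next read in all genes that it changed without sinapic acid, since the groups share no library. P2R vs CK changed 4462 of 9039 genes (49.4%), 1821 higher and 2641 lower as deposited, and 2304 higher and 2047 lower after median-of-ratios scaling. Of the 1821 higher genes, 1490 (81.8%) also had a positive difference in P2R+SA vs SA, where 41.6% of all tested genes did, and 410 (22.5%) lay above every SA library, where 8.15% of all tested genes did. Of the 2641 lower genes, 2233 (84.6%) had a negative difference with sinapic acid. That sign was the commoner, since 41.6% of all tested genes had a positive one. Of the same 2641, 589 (22.3%) lay below every SA library, where 10.9% of all tested genes did. Clear contradictions were few: 24 of the 1821 lay below every SA library, where 10.9% of all tested genes did. Of the 2641, 34 lay above every SA library, where 8.15% of all tested genes did.

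Median differences were smaller with sinapic acid. For the 443 genes raised by at least 1 log2 unit without it, the median was 0.53 log2 units in P2R+SA vs SA and 1.39 in P2R vs CK. For the 261 genes lowered by at least 1 log2 unit, it was -0.63 with sinapic acid and -1.28 without. The sign was the same in 397 of the 443 (89.6%) and in 234 of the 261 (89.7%). A positive sign was seen in 41.6% of all tested genes, so the negative sign was the commoner. These genes were chosen by their size in P2R vs CK, which favours a smaller value in any other comparison, so the medians describe the genes and do not test a difference. The files' header number differs between these comparisons too, 48 with sinapic acid and 36 without, and the share of sinapic acid and of that number in the smaller size cannot be told apart.

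**Figure D4:**
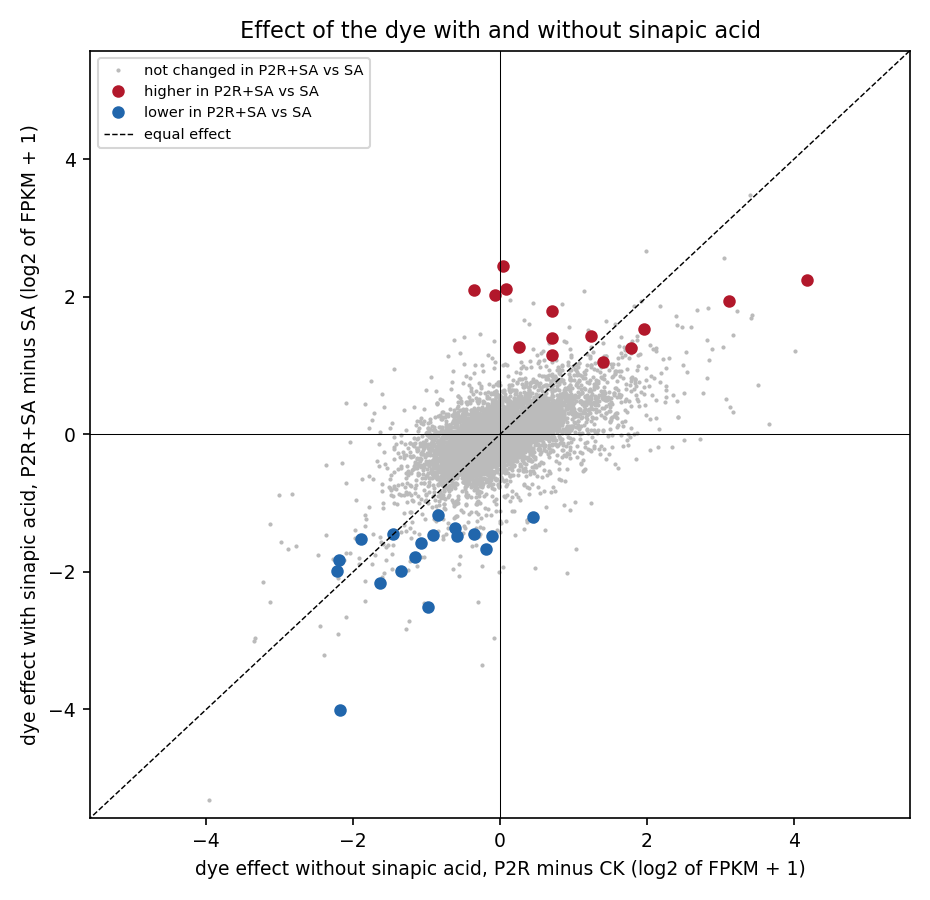
Difference in log2(FPKM + 1) of each of 9039 genes with the dye, with sinapic acid on the vertical axis (P2R+SA minus SA) and without it on the horizontal axis (P2R minus CK). Red and blue points are the 14 genes higher and 18 genes lower in P2R+SA vs SA, the dashed line marks an equal effect, and 4 of the highest red points sit near 0 on the horizontal axis.

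Whether the dye's effect differed with and without sinapic acid was tested over all 12 libraries as the difference of the differences. It passed for 102 of 9039 genes (1.13%), with a more positive effect in sinapic acid cultures in 39 (0.431%) and a more negative one in 63 (0.697%). In the 63 genes the median log2 difference was -0.17 in P2R+SA vs SA and 1.32 in P2R vs CK, and P2R lay above every CK library in 59 of them, where 24.2% of all tested genes did. Of the same 63, P2R+SA lay above every SA library in 10 and below in 18, against 8.15% and 10.9% of all tested genes. In the 39 genes the medians were 0.44 in P2R+SA vs SA and -0.74 in P2R vs CK, with P2R below every CK library in 33, where 36.3% of all tested genes did. P2R+SA lay above every SA library in 19 of the 39 and below in 3. These genes were chosen by the same libraries, so the counts describe them and test nothing. The count of 102 was 34 to 48 without any 1 of the CK or P2R libraries, 170 without SA replicate 1, 320 without SA replicate 2 and 60 with the replicate block.

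Among the 32 genes changed in P2R+SA vs SA, 8 were in these 102, namely 4 rises and 4 falls. It was 3 rises and 3 falls without CK replicate 2 or 3 or P2R replicate 1 or 2, 6 and 7 without SA replicate 1, 6 and 10 without replicate 1 of both groups, and 6 and 11 with library weights. Without SA replicate 3, 1 rise passed in the opposite direction. The 4 rises were of the 5 that did not pass in P2R vs CK, and A10771 was 1 of them (difference of effects 2.40, SE 0.39, limma adjusted p = 0.0139). The fifth rise had the smallest limma adjusted p of all tested genes in this comparison, 0.00135, which it shared with 1 other gene. Genes picked for a large change with sinapic acid are favoured in this test, which also uses the narrower spread of P2R and CK. For A09380 the difference was -1.94 and did not pass (SE 0.48, limma adjusted p = 0.0822). A00670 and A00523 did not pass either (limma adjusted p = 0.244 and 0.0934).

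None of the 100 genes with the highest mean over the 6 libraries passed in P2R+SA vs SA by limma, where 0.354% of all tested genes did, a share too low to read anything from. An unadjusted p under 0.05 was seen in 26 of them, against 13.6% of all tested genes, and 20 passed with all 12 libraries in 1 fit, against 6.26%. Their median log2 difference was -0.10, with 17 above and 17 below every SA library, against 8.15% and 10.9% of all tested genes. The most abundant gene, of 348 bp, had 52971, 45364 and 44976 FPKM in P2R+SA and 28793, 31595 and 35150 FPKM in SA, without overlap (log2 difference 0.59, limma adjusted p = 0.357, and 0.0459 with all 12 libraries in 1 fit). The 10 highest genes held 13.8% to 15.3% of all FPKM in P2R+SA libraries and 11.4% to 12.8% in SA libraries.

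Few genes crossed 1 FPKM between the groups, a line that marks a low level and not absence. Of all 10276 genes, 2 had 0 FPKM in every SA library and more than 0 in every P2R+SA library. Another 3 had 0 FPKM in every P2R+SA library and more than 0 in every SA library. In 12 genes every SA library was under 1 FPKM and every P2R+SA library at 1 FPKM or more, and the highest P2R+SA mean among them was 2.28 FPKM. In 18 genes the reverse was seen, and 3 of these had an SA mean of 5 FPKM or more. The highest of them had 0.96, 0.43 and 0.93 FPKM in P2R+SA and 1.78, 12.8 and 71.7 FPKM in SA. Its SA libraries differed widely among themselves. None of the 30 genes passed (limma adjusted p from 0.111 to 0.508), where 0.354% of all tested genes did. An unadjusted p under 0.05 was seen in 22 of them, against 13.6% of all tested genes, and 13 passed with all 12 libraries in 1 fit, against 6.26%. These genes were picked for groups that do not overlap, which favours small p-values, so nothing is read from the counts.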

How the data were processed

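The values are FPKM, as the authors deposited them, for 12 libraries of mycelium, 3 in each of 4 groups. Tools listed in the submitters' processing notes, without role or order, are R 3.2.0, HTSeq, HISAT2 and fastp. Not given in the sources used here are the genome build, the gene annotation and the strand setting. The values were whole multiples of 1 fragment for 10272 of 10276 genes (99.96%, within 1e-06 fragments). The smallest whole fragments that fitted were taken for each gene. Coding lengths were then scaled by the library total that made gene lengths multiples of 3, which assumes that they are coding sequence. Depth was 35843616 to 39336624 fragments in genes per library.

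Genes that reached 1 FPKM in at least 3 of the 6 compared libraries were tested as log2(FPKM + 1) with limma 3.58.1 (R 4.3.3, intensity trend, Benjamini-Hochberg adjustment over 9039 genes, two-sided, threshold 0.05). P2R vs CK was fitted on its own 6 libraries, with the same genes, and the difference between the dye's effects on all 12. Fits were first run on simulated data with known changes, and the outcome is not given here. Named are the 2 largest rises and the 2 largest falls among genes past the threshold whose groups do not overlap and whose mean is at least 5 FPKM in either group. Other genes are given by rank or as extremes, chosen after their values were seen. The genes, lists and tests were chosen with earlier results of these data known. Alternatives covered the pseudocount, filters, scaling, library weights, voom on recovered fragments, the replicate block and libraries left out.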

Additional observations from a re-analysis of the deposited data

Results flagged for a closer look

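In 8 of the 32 genes changed in P2R+SA vs SA, the dye's effect with sinapic acid differed from its effect without it. The test was of the difference of effects (limma over 12 libraries, n = 3 per group), and 1.13% of all tested genes passed it. The 32 genes were picked by libraries that also enter this test, which favours them, so nothing is read from these shares. The 4 rises and 4 falls became 3 and 3 without CK replicate 2 or 3 or P2R replicate 1 or 2, 6 and 7 without SA replicate 1, and 6 and 11 with library weights. In A10771 the difference of log2 effects was 2.40 (limma adjusted p = 0.0139). It was 2.03 in the third rise (limma adjusted p = 0.0182), 2.46 in the fourth (limma adjusted p = 0.0102) and 2.10 in the fifth (limma adjusted p = 0.00135). In these 4 rises the dye's effect was 2.03 to 2.44 log2 units with sinapic acid and -0.36 to 0.08 without it.

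In the falls the difference was -1.47 in the eighth (limma adjusted p = 0.0110), -1.37 in the eleventh (limma adjusted p = 0.00457), -1.10 in the fifteenth (limma adjusted p = 0.0237) and -1.65 in the seventeenth (limma adjusted p = 0.0139). The fifteenth fall was lower with the dye in both media, by -1.45 log2 units with sinapic acid and -0.35 without it. In the seventeenth the log2 difference was -1.20 with sinapic acid and 0.45 without it, where it did not pass the test in P2R vs CK. The header number 48 in the libraries with sinapic acid and 36 in those without it cannot be told apart from sinapic acid in these differences.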

How the results depend on the processing

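The count of 32 genes in P2R+SA vs SA was 0 with no filter on low values (1317 at an unadjusted limma p under 0.05), 20 by limma-voom on recovered fragments, 20 with no intensity trend, 566 with all 12 libraries, 1428 with library weights and 495 without replicate 1 of both groups. The library weights ran from 0.278 for P2R+SA replicate 1 to 4.98 for P2R+SA replicate 2, so the weighted fit leaned most on the latter. Leaving out 1 library gave 0 to 188 genes. The count was 27 to 36 with another pseudocount, a stricter filter or another scaling. Median-of-ratios scaling gave 36 genes, 19 higher and 17 lower, of which 28 were among the 32. Quantile normalization also gave 36, 18 higher and 18 lower, of which 26 were among the 32. P2R vs CK changed 2587 genes with all 12 libraries and 3394 to 4235 with 1 left out. The difference of the dye's effects passed in 499 genes with library weights, in 349 without replicate 1 of both groups and in 34 to 320 with 1 library left out.

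With the replicate block, 0 genes passed in P2R+SA vs SA (1131 at an unadjusted limma p under 0.05), 3871 in P2R vs CK and 60 in the difference of effects. Whether the numbers pair the samples was not settled. The correlation of deviations ran from -0.28 to 0.18 between P2R+SA and SA libraries of 1 number. Between P2R+SA and P2R libraries of 1 number it was 0.405, 0.553 and -0.29. Libraries of unlike number were not set beside these values. The 4 named genes kept their direction in all 17 alternatives and passed in 10 (A10771), 5 (A09380), 7 (A00670) and 9 (A00523). With 1 library left out, adjusted limma p ran over 0.0171 to 0.154, 0.0140 to 0.227, 0.00878 to 0.227 and 0.0102 to 0.202 in that order. The causes were not tested. At the median coding length depth limited mainly the values near 1 FPKM, and 1 fragment was worth more FPKM in a shorter gene.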

Other observations

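Among the 32 changed genes, 2 pairs have consecutive ID numbers, although no source says that the numbers follow position in the genome. A09380 and the sixth rise form the first pair, and the FPKM of A09380 was 0.656 to 1.24 times that of the sixth rise over the 6 compared libraries and 0.502 to 1.33 times over all 12. The fourth and sixth falls form the other. The sixth had 0.684 to 0.821 times the FPKM of the fourth in all 12 libraries, so these genes kept nearly the same proportion in every group. The fourth fall had 50.7, 30.4 and 37.8 FPKM in P2R+SA and 157, 158 and 154 FPKM in SA. Whether such pairs share reads was not tested.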
